A study of Rattus norvegicus with 6 samples.

Results

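The aldehyde dehydrogenases described here are 10 genes of the rat: Aldh2, Aldh1a1, Aldh1b1, Aldh9a1, Aldh3a2, Aldh7a1, Aldh4a1, Aldh6a1, Aldh1l1 and Aldh5a1. They were chosen as enzymes of aldehyde clearance, and each was followed through every probe whose accession maps to it, which gave 18 probes of 9 genes among 61453 probes analysed. No probe was matched to Aldh5a1, so that gene is not analysed here. RNA came from the renal cortex of 6 male rats of the outbred stock Sprague-Dawley (Crl:CD(SD)), bought at 5 weeks of age. The dibromoethane group, 3 rats, received 1,2-dibromoethane at 75 mg/kg/day for 4 weeks, and the control group, 3 rats, received corn oil for the same time. Each rat gave 1 single-colour array, and all 18 probes were well above background on all 6 arrays, so that none entered the test through 1 group alone.

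Aldehyde dehydrogenases oxidise aldehydes to carboxylic acids with NAD or NADP as the electron acceptor. Oxidation of 1,2-dibromoethane by cytochrome P450 releases bromoacetaldehyde, a reactive aldehyde, and aldehyde dehydrogenases are a general route by which cells clear reactive aldehydes. In the proximal tubule, which makes up most of the renal cortex, family members also serve the breakdown of amino acids, the synthesis of carnitine and retinoic acid, and folate metabolism. All 14 genes of a list of proximal tubule markers, mostly transport and uptake genes, were above background and tested. So were all 9 of a list of distal segments, 5 of podocytes and 6 of endothelium, so this does not single out a cell type.

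The comparison asks whether transcripts of these enzymes differed between dibromoethane and control rats. Values are log2 signals relative to the array's 75th percentile, so that 0 is the signal that marks that percentile. None of the 18 probes passed the test in limma after Benjamini-Hochberg adjustment over 37274 probes (adjusted p from 0.328 to 0.994), where 10 probes, 0.0268%, passed in all. At an unadjusted p under 0.05 stood 5 member probes, all higher in dibromoethane rats and 0 lower: the probe of Aldh1l1, all 3 probes of Aldh4a1 and 1 of 2 probes of Aldh9a1. Among all probes tested 4.68% were higher and 6.59% lower by that measure. Probes of 1 gene read the same RNA of the same rats, so these 5 probes stand for 3 genes of 9. In 6 member probes, of 4 genes, every dibromoethane array lay above every control array, and in 0 the reverse, where 7.59% and 11.8% of all probes did so. A positive log2 fold change was found in 15 of 18 probes, beside 46.8% of all probes, and the median was 0.17 for the family and -0.013 for all probes tested. With 3 rats per group an exact permutation test of a single probe cannot go below a two-sided p of 0.1.

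**Figure D1:**
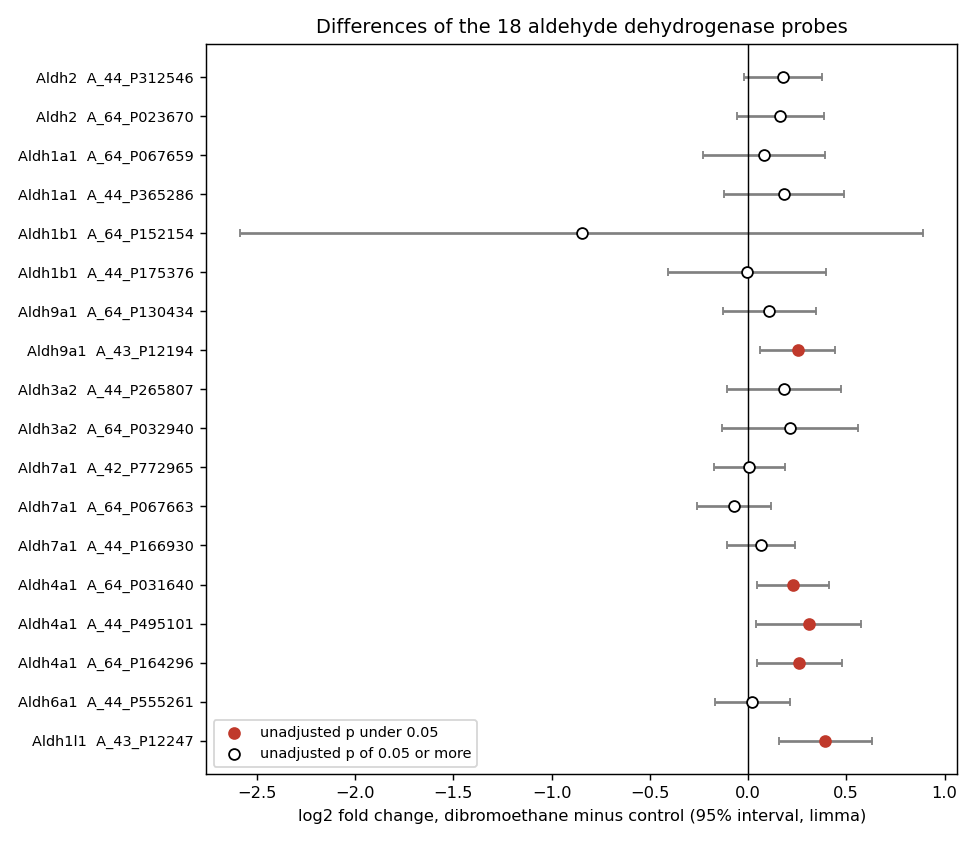
Log2 fold change (dibromoethane minus control) of each of the 18 member probes with its 95% interval from limma, 1 row per probe; filled points have an unadjusted p under 0.05. The values run from -0.85 for 1 probe of Aldh1b1 to 0.39 for Aldh1l1, and the intervals of the 3 Aldh4a1 probes, 1 Aldh9a1 probe and the Aldh1l1 probe lie above 0.

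Aldh1l1, the cytosolic dehydrogenase of formyltetrahydrofolate that removes carbon units from the folate pool, had the highest fold change of the family. Its probe A_43_P12247 (NM_022547) read 4.76, 4.59 and 4.55 in dibromoethane replicates 1 to 3, against 4.25, 4.11 and 4.35 in control replicates 1 to 3. All dibromoethane arrays were above all control arrays, and the means were 4.63 ± 0.11 in dibromoethane rats and 4.24 ± 0.12 in control rats (SD, n = 3 each). The fold was 1.31 (95% interval 1.12 to 1.55), a log2 fold change of 0.39 (SE 0.10, unadjusted p = 0.00630, limma adjusted p = 0.328). The arrays lay on 3 slides, and the difference was 0.41 within slide 1 and 0.40 within slide 2, the slides that held both groups. This transcript had the smallest p of the family.

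Aldh4a1, the mitochondrial dehydrogenase of glutamate semialdehyde in proline breakdown, was read by 3 probes (NM_001134698) that gave like differences. Probe A_64_P031640 read 6.80, 6.64 and 6.73 in dibromoethane rats, against 6.54, 6.45 and 6.49 in control rats. Probe A_44_P495101 read 1.90, 1.66 and 1.85 in dibromoethane rats, against 1.63, 1.34 and 1.52 in control rats. Probe A_64_P164296 read 1.04, 0.89 and 1.01 in dibromoethane rats, against 0.85, 0.63 and 0.68 in control rats. In each of the 3 probes all dibromoethane arrays were above all control arrays, and dibromoethane replicate 2 was the lowest of its group. The log2 fold changes were 0.23 (SE 0.076, limma adjusted p = 0.382), 0.31 (SE 0.11, limma adjusted p = 0.402) and 0.26 (SE 0.089, limma adjusted p = 0.391), in that order, which correspond to folds of 1.17, 1.24 and 1.20. Within slide 1 they were 0.14, 0.17 and 0.15, and within slide 2 0.32, 0.38 and 0.36, so the difference was smaller on slide 1 for every probe.

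Aldh9a1 oxidises trimethylaminobutyraldehyde in the synthesis of carnitine and accepts other aminoaldehydes. Its probe A_43_P12194 (NM_022273) read 3.68, 3.64 and 3.74 in dibromoethane rats, against 3.53, 3.36 and 3.41 in control rats, with no overlap. The log2 fold change was 0.25 (SE 0.078, unadjusted p = 0.0175, limma adjusted p = 0.363). The other probe of the gene, A_64_P130434, read 6.28, 5.98 and 6.14 in dibromoethane rats, against 6.08, 5.94 and 6.05 in control rats, and there the groups overlapped because dibromoethane replicate 2 lay below 2 of the 3 controls. That probe gave 0.11 (SE 0.10, limma adjusted p = 0.694), and the mean of both probes 0.18. Probe A_64_P130434 gave 0.037 when dibromoethane replicate 1 was left out, 0.18 when replicate 2 of that group was, and 0.069 without control replicate 2.

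The promoter windows of these 3 genes are shown because theirs are the probes at an unadjusted p under 0.05. Each holds 250 bases before to 50 after the annotated start in RefSeq's GRCr8 assembly, 5′ to 3′ on the gene's strand, at chr13:82038429-82038728 (+ strand) for Aldh9a1, chr5:157162939-157163238 (+ strand) for Aldh4a1 and chr4:124616970-124617269 (+ strand) for Aldh1l1. Capitals mark matches, on either strand, to 5 sets of letters: the GC box GGGCGG, the CCAAT box, the TATA box TATAAA, the core TGACNNNGC of the antioxidant response element that NRF2 binds, and the nuclear receptor half-site AGGTCA.
Aldh9a1: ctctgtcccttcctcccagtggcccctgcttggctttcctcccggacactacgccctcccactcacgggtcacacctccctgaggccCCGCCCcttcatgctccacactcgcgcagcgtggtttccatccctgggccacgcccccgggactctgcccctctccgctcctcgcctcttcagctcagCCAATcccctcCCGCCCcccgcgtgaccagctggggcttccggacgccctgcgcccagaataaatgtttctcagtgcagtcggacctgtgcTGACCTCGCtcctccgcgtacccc
Aldh4a1: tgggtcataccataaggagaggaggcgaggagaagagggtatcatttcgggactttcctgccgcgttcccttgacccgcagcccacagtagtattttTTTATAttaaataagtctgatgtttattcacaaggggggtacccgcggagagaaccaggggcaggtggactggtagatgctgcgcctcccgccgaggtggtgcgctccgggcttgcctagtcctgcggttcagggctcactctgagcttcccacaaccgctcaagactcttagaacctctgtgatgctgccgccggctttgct
Aldh1l1: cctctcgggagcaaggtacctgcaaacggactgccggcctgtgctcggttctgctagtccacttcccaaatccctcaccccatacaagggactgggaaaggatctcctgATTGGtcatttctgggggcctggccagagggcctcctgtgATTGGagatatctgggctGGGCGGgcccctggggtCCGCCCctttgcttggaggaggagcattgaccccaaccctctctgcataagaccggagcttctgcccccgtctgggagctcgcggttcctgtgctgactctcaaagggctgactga

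The Aldh9a1 window held 2 GC boxes and 1 CCAAT box, and 26 bases after the start 1 antioxidant element core, inside which the only AGGTCA match lies on the other strand, with 6 bases shared. In Aldh4a1 the search found only TATAAA, on the opposite strand, at -153 from the start. The Aldh1l1 window held 2 GC boxes, at -83 and -66, and 2 CCAAT boxes, at -141 and -101. Over the 33469 promoters of 300 bases in the table, 33.1% hold GGGCGG, 37.5% CCAAT, 14.2% TATAAA, 12.1% TGACNNNGC and 16.2% AGGTCA. Of 9 member promoters in the table, which were those of all members but Aldh2, 4, 7, 1, 1 and 1 held them in that order. A match describes letters in the window and is not evidence of binding. The 3 windows shared no set of letters among all of them.

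Aldh2, the mitochondrial enzyme that clears acetaldehyde, was read by 2 probes (NM_032416). Probe A_44_P312546 read 6.23, 6.20 and 6.28 in dibromoethane rats, against 6.05, 6.17 and 5.96 in control rats, without overlap, and gave a log2 fold change of 0.18 (SE 0.082, unadjusted p = 0.0728, limma adjusted p = 0.476). Probe A_64_P023670 read 6.09, 6.11 and 6.15 in dibromoethane rats, against 5.93, 6.10 and 5.82 in control rats, and overlapped only through control replicate 2. It gave 0.16 (SE 0.091, limma adjusted p = 0.536), and 0.10 without control replicate 3. The 95% intervals, -0.022 to 0.38 and -0.059 to 0.39 on the log2 scale, include 0. They hold no fold above 1.31.

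Aldh1a1, the cytosolic retinal dehydrogenase, which also accepts acetaldehyde and products of lipid peroxidation, had 2 probes (NM_022407) that overlapped between the groups. Probe A_64_P067659 read 7.07, 7.03 and 7.07 in dibromoethane rats, against 7.16, 7.06 and 6.71 in control rats, where control replicate 3 stood apart on the low side. Probe A_44_P365286 read 5.13, 4.81 and 5.06 in dibromoethane rats, against 4.998, 4.79 and 4.67 in control rats. The log2 fold changes were 0.082 (SE 0.13) and 0.18 (SE 0.13), with limma adjusted p of 0.831 and 0.604. Both probes were lower in the dibromoethane array of slide 1 (-0.079 and -0.077) and higher in that of slide 2 (0.36 and 0.46). Without control replicate 3, probe A_64_P067659 gave -0.053 and probe A_44_P365286 0.11.

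Aldh1b1, a mitochondrial relative of Aldh2 that also oxidises acetaldehyde, gave unlike values from its 2 probes (NM_001011975). Probe A_64_P152154 read -1.57, -3.06 and -4.26 in dibromoethane rats, against -2.82, -2.14 and -1.39 in control rats, a wide scatter in both groups, with the arrays of slide 2 (dibromoethane replicate 1 and control replicate 3) the highest of their groups. Its SD was 1.34 among dibromoethane rats and 0.71 among control rats, and only 0.754% of the probes tested had a larger SD within groups. The difference, -0.85 (SE 0.71, limma adjusted p = 0.673), did not pass the test and came to -0.20 without dibromoethane replicate 3 and -1.54 without dibromoethane replicate 1, where its unadjusted p was under 0.05. Probe A_44_P175376 read -3.02, -3.54 and -3.03 in dibromoethane rats, against -3.33, -3.22 and -3.04 in control rats, and gave -0.0045 (SE 0.16).

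**Figure D2:**
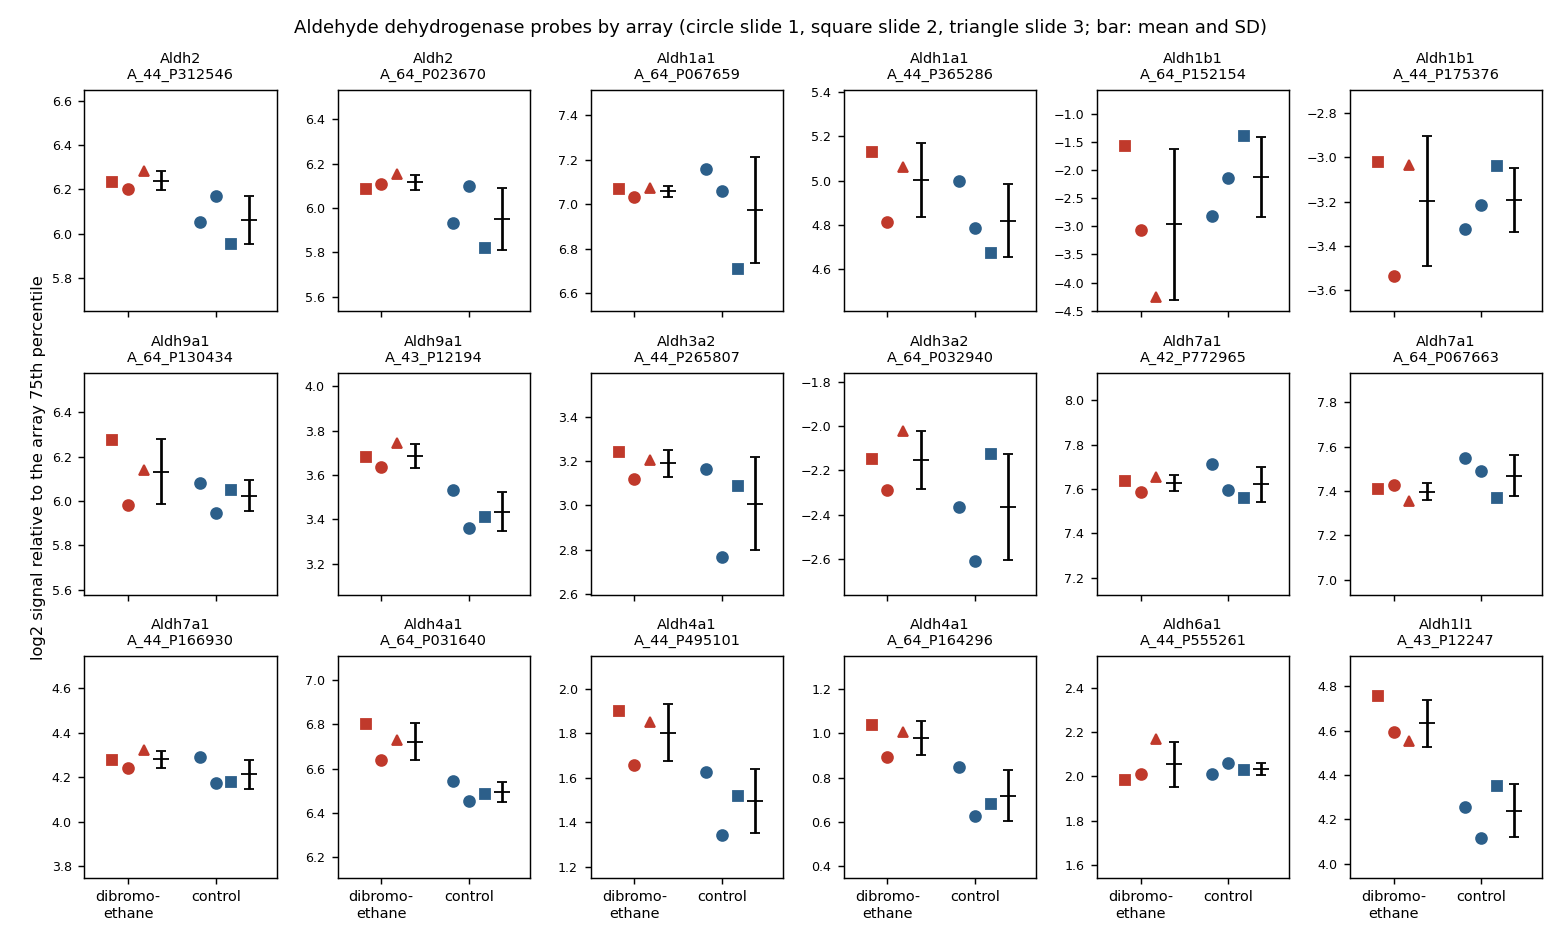
Log2 signal relative to the array's 75th percentile for each member probe (1 panel per probe, each with its own axis range), with dibromoethane arrays on the left in red and control arrays on the right in blue; bars give mean and SD (n = 3). The 3 Aldh4a1 panels and the Aldh1l1 panel show no overlap of the groups, whereas probe A_64_P152154 of Aldh1b1 spreads from -4.26 to -1.39.

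Aldh3a2, the fatty aldehyde dehydrogenase of the endoplasmic reticulum, had 2 probes (NM_031731) with similar differences and overlapping groups. Probe A_44_P265807 read 3.24, 3.12 and 3.21 in dibromoethane rats, against 3.17, 2.77 and 3.09 in control rats. Probe A_64_P032940 read -2.15, -2.29 and -2.02 in dibromoethane rats, against -2.37, -2.61 and -2.13 in control rats. Control replicate 2 was the lowest array for both. The log2 fold changes were 0.18 (SE 0.12) and 0.21 (SE 0.14), with limma adjusted p of 0.591 and 0.594. Without control replicate 2 they were 0.063 and 0.093, and the second was 0.33 without control replicate 3.

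The values of Aldh7a1 and Aldh6a1 were close to 0, with narrow intervals. Aldh7a1, the aminoadipic semialdehyde dehydrogenase of lysine breakdown, read 7.64, 7.59 and 7.66 in dibromoethane rats, against 7.71, 7.59 and 7.56 in control rats, by probe A_42_P772965 (NM_001271105). Its other probes read 7.41, 7.43 and 7.35 in dibromoethane rats, against 7.55, 7.49 and 7.37 in control rats (A_64_P067663), and 4.28, 4.24 and 4.32 in dibromoethane rats, against 4.29, 4.17 and 4.18 in control rats (A_44_P166930). The groups overlapped in all 3, and the log2 fold changes were 0.0054, -0.074 and 0.067 (SE 0.074, 0.077 and 0.071; limma adjusted p from 0.740 to 0.984). The 95% intervals reach from -0.26 at the lowest to 0.24 at the highest, which leaves out folds above 1.18 and folds below 0.83. Aldh6a1, the methylmalonate semialdehyde dehydrogenase of valine and thymine breakdown, read 1.98, 2.01 and 2.17 in dibromoethane rats, against 2.01, 2.06 and 2.03 in control rats, by its probe A_44_P555261 (NM_031057). Its log2 fold change was 0.022 (SE 0.079, 95% interval -0.17 to 0.21, limma adjusted p = 0.934), with dibromoethane replicate 3 the highest array.

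Across the family, the difference was less on slide 1, where dibromoethane replicate 2 was set against control replicates 1 and 2, than on slide 2, where dibromoethane replicate 1 was set against control replicate 3. The median over the 18 probes was 0.048 within slide 1 and 0.25 within slide 2, beside -0.025 and -0.021 for all probes tested. Whether the slides differ in this was not tested. In 9 of the 18 probes the difference was positive on both slides, beside 26.6% of all probes: both probes of Aldh2, 1 of Aldh9a1, 1 of Aldh3a2, 1 of Aldh7a1, all 3 of Aldh4a1 and that of Aldh1l1. In 2 of 18, 1 probe of Aldh1b1 and that of Aldh6a1, it was negative on both, beside 36.0%. With slide as a fixed block 1 member probe, that of Aldh1l1, had an unadjusted p under 0.05, at a log2 fold change of 0.41; that fit has 2 residual degrees of freedom. Centring each array on its median in place of its 75th percentile also left only Aldh1l1, at 0.36. In that fit 13 of 18 member probes were positive, beside 38.9% of all probes. The count of 5 higher probes was 2 without dibromoethane replicate 1, where 1 probe of Aldh1b1 was lower at that level. It was 1 without dibromoethane replicate 3, 3 without control replicate 2 and 3 without control replicate 3. Aldh1l1 was under 0.05 in each of these fits. Among all probes tested, 4201 stood under 0.05 in either direction, and 3384, 3161, 2602 and 4310 in these fits. The count of higher member probes was 7 with quantile normalization and 6 with trend and robust, and 2 without the filter on dim probes, where each of the 3 Aldh4a1 probes lay just above 0.05. Without control replicate 2 the median over the family was 0.11.

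**Figure D3:**
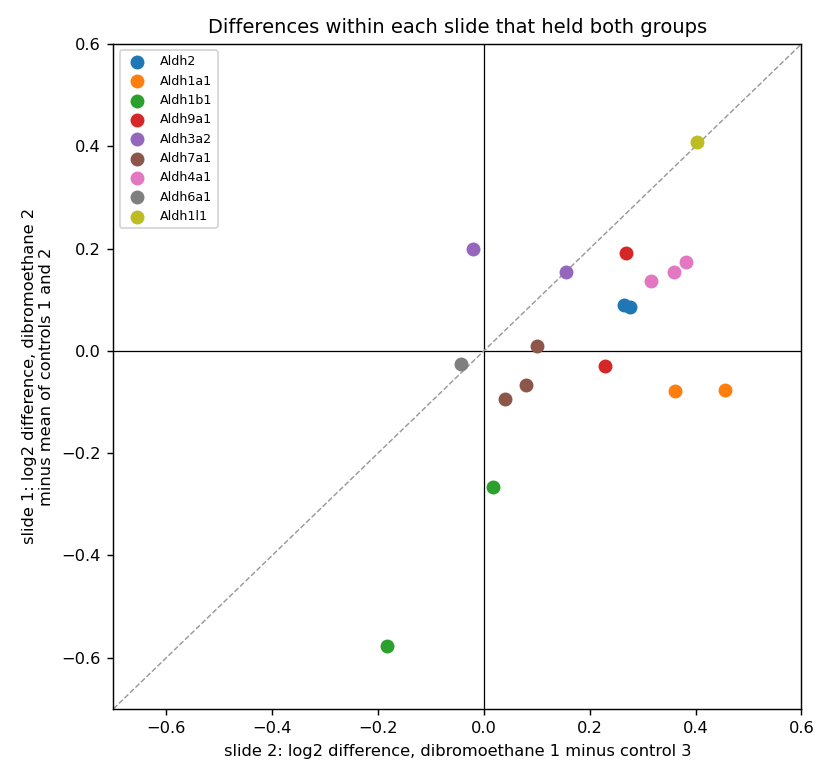
Log2 difference between dibromoethane and control arrays for each member probe within slide 2 (horizontal axis) and within slide 1 (vertical axis), coloured by gene; the dashed line marks equality. Aldh1l1 lies on the line at about the same value on both slides (0.41 on slide 1 and 0.40 on slide 2), while both Aldh1a1 probes are below 0 on slide 1 and above 0 on slide 2.

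The spread within groups was small for most members, with a median SD of 0.108 on the log2 scale for the 18 probes and 0.141 for all probes tested. Probes of 1 gene gave log2 fold changes that lay closest for Aldh2 (range 0.014) and farthest apart for Aldh1b1 (range 0.84).

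Other measures differed between the groups as well, and values given after a gene name in these lists are log2 fold changes. Of 29 tested probes of a list of liver transcripts, 28 were positive, beside 46.8% of all probes, with a median log2 fold change of 1.34. At an unadjusted p under 0.05, 9 were higher, beside 4.68% of all probes, and 0 passed. Of the 29, 22 were above background on all 6 arrays. The rest entered the test through the dibromoethane group alone, so these counts and the median rest in part on that filter. The summed linear signal of the 29, in units of the array's 75th percentile, was 127, 76.5 and 59.7 in dibromoethane rats, against 39.7, 57.9 and 56.3 in control rats. Dibromoethane replicate 1 was the highest array and control replicate 1 the lowest, and the groups did not overlap. Among its genes were Ahsg (2.51, SE 0.73) and Apoa2 (2.01, SE 0.62, above background in 2 of 3 control arrays), both secreted liver proteins. The other probes of Ahsg gave 2.67, above background in 2 of 3 control arrays, and, with overlapping groups, 0.59. With normexp Apoa2 was 1.00 and Ahsg 1.81. Without dibromoethane replicate 1 the median over the family was 0.137 and the value of Aldh1l1 0.33. Without control replicate 1 they were 0.1745 and 0.40.

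The summed marker signals of proximal tubule, leukocytes and blood cells did not overlap between the groups. Those of distal segments, podocytes and endothelium did. The summed signal of 25 proximal tubule marker probes was 2773 to 2885 in dibromoethane rats, against 2992 to 3068 in control rats, and that of all 37274 probes tested was 278350 to 287350 in dibromoethane rats, against 292870 to 302540 in control rats. Of the 25, 16 were negative and 9 positive, among them each probe of Slc13a1 (0.45, 0.31 and 0.15). At an unadjusted p under 0.05, 5 were lower and 0 higher, beside 6.59% and 4.68% of all probes tested, and 0 passed. The smallest p belonged to Slc26a1, a sulphate exchanger (-0.33, SE 0.067), and Slc22a6, an organic anion transporter (-0.28, SE 0.067). Leukocyte markers summed to 23.5 to 26.8 in dibromoethane rats, against 30.9 to 34.9 in control rats, with 4 of 14 probes lower at that level. These 4 are the 2 probes each of the complement genes C1qb (-0.48 and -0.45) and C1qa (-0.50 and -0.54), which make up most of that sum. The other 10 probes, of Ptprc, Cd14, Cd68 and Cd79b, had overlapping groups, and 5 of them were positive. The highest value, 0.67 for Cd79b, had an SE of 0.50. Its probe was above background in 2 of 3 control arrays and entered the test through the dibromoethane group alone. Cd3e and Ms4a1 of that list had no tested probe. Blood cell markers summed to 144 to 174 in dibromoethane rats, against 199 to 232 in control rats, with 3 of 5 lower: the 2 probes of the globin gene Hbb (-0.43 and -0.48), the first of which supplies most of the sum, and that of the haem synthesis gene Alas2 (-0.52). The 2 probes of Slc4a1, the anion exchanger of red cells, overlapped between the groups (0.23 and 0.021). The smallest p in 3 further lists, none of whose probes passed, belonged to Scnn1g (0.33) and Umod (-0.56, SE 0.30) among 17 probes of distal segments, Wt1 (-0.28) and Nphs1 (-0.087) among 10 of podocytes, and Esam (0.60) and Kdr (0.087) among 9 of endothelium. Signs were mixed in each of these 3 lists. Positive and negative probes numbered 9 and 8 for distal segments, 3 and 7 for podocytes and 5 and 4 for endothelium, beside 46.8% positive among all probes tested. The value of Umod was -0.22 without dibromoethane replicate 3, -0.85 without dibromoethane replicate 2 and -0.19 with slide as a block. This probe of Nphs1, A_44_P533740, ran from -0.16 without dibromoethane replicate 2 to -0.032 without dibromoethane replicate 3. The other probe of Nphs1 gave 0.041 (SE 0.14). The part of these measures in the values of the family was not tested. In whole cortex, fewer cells of a type and less RNA per cell cannot be told apart.

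Among the other aldehyde dehydrogenase genes on the array, 13 probes of 8 genes were tested and 0 passed, with a median of 0.082. Of the 13, 10 were above background on all 6 arrays. The rest entered the test through 1 group alone, so the median rests in part on that filter. At an unadjusted p under 0.05, 2 were higher and 1 lower, beside 4.68% and 6.59% of all probes tested. Aldh3b1, which oxidises aldehydes derived from membrane lipids, read -0.45, -0.12 and -0.49 in dibromoethane rats, against -1.21, -0.83 and -0.83 in control rats, by probe A_64_P152149, with no overlap. Its log2 fold change was 0.60 (SE 0.15, limma adjusted p = 0.337), a larger positive value than that of any of the 18 member probes, and its other probe gave 0.57 (SE 0.17). Aldh16a1 gave -0.18 (SE 0.067) and -0.088 (SE 0.11) from its 2 probes.

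Aldehyde reductases, aldehyde oxidases and alcohol dehydrogenases, which act on the same substrates by other routes, had 25 tested probes of 17 genes. None passed, and the median was 0.22. At an unadjusted p under 0.05, 7 were higher and 0 lower, beside 4.68% and 6.59% of all probes tested. Of the 25, 23 were above background on all 6 arrays. The rest, with that of Adh4, which is among the 7, entered the test through the dibromoethane group alone. The count and the median therefore rest in part on that filter. Cbr1, a carbonyl reductase, had values of 0.38 (SE 0.083), 0.35 (SE 0.092) and 0.27 (SE 0.10) from 3 probes. Akr1b1, aldose reductase, had 0.50 (SE 0.14, limma adjusted p = 0.361) and 0.39 (SE 0.12). Enzymes that form aldehydes had 21 tested probes of 13 genes, with 0 passing and a median of 0.076. At an unadjusted p under 0.05, 4 of the 21 were higher and 1 lower, beside the same shares of all probes. The smallest p among them belonged to Sardh, the sarcosine dehydrogenase that releases formaldehyde units (0.43, SE 0.12), and Maob, a monoamine oxidase (0.64, SE 0.21, with 0.54 from its other probe).

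Enzymes that share a pathway with a family member had 33 tested probes of 20 genes, with 0 passing and a median of 0.12. Of the 33, 27 were positive, beside 46.8% of all probes tested. At an unadjusted p under 0.05, 4 were higher and 1 lower, beside 4.68% and 6.59% of all probes. Aass, which opens the lysine pathway upstream of Aldh7a1, read 2.37, 2.48 and 2.48 in dibromoethane rats, against 2.24, 2.18 and 2.09 in control rats (0.27, SE 0.078, limma adjusted p = 0.361), beside the 3 values of Aldh7a1 close to 0. Mthfs, a folate enzyme, gave -0.33 (SE 0.10), -0.12 and 0.15 from its 3 probes, which differ in sign. The next genes were chosen after their values were seen. Prodh, proline dehydrogenase, which supplies the substrate of Aldh4a1, gave 0.48 (SE 0.24), 0.46 (SE 0.22), 0.15 (SE 0.21) and 0.12 (SE 0.20) from its 4 probes. The first 2 were 0.23 and 0.24 without dibromoethane replicate 1. Hibch, a hydrolase of valine breakdown upstream of Aldh6a1, gave 0.23 (SE 0.078), 0.23 (SE 0.083) and 0.13 (SE 0.090). Abat, the transaminase that yields succinate semialdehyde, the substrate of Aldh5a1, gave 0.23 (SE 0.083, limma adjusted p = 0.402).

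**Figure D4:**
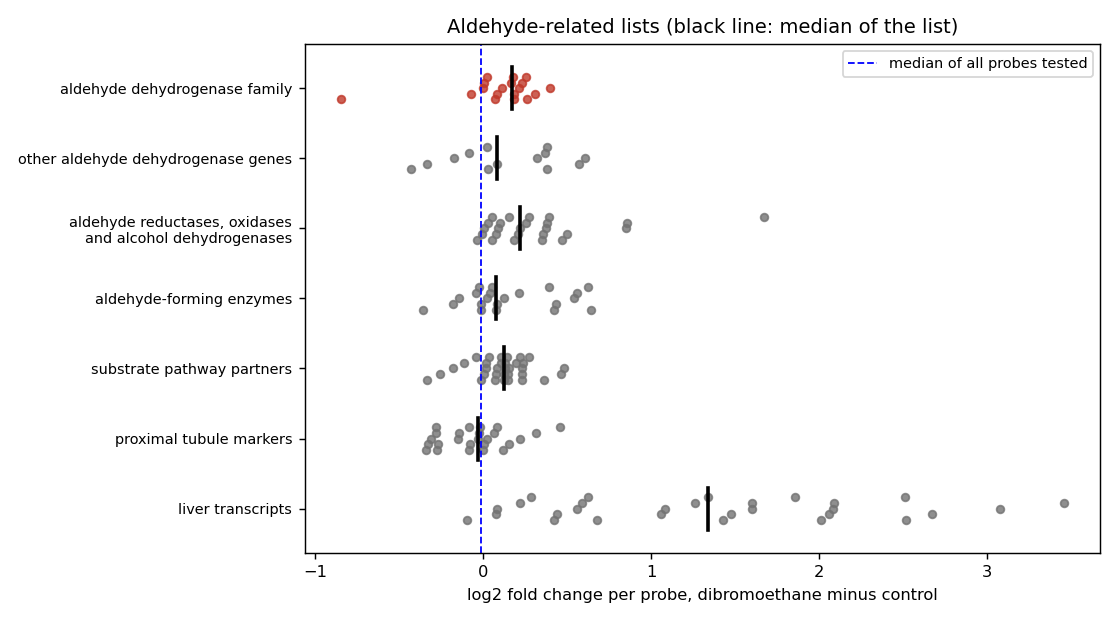
Log2 fold change of each tested probe (dibromoethane minus control) in the family, in red, and in 6 other lists, in grey; the black line is the median of the list and the dashed line that of all probes tested. The family's median is 0.17 and that of the liver transcripts 1.34, with the proximal tubule markers at -0.035.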

How the data were processed

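Per the labels' protocols, cortex RNA was converted to Cy3-labelled cRNA for Agilent arrays read in 1 colour. The deposited scanner output gives the intensity of each spot. Per the file headers it comes from Agilent Feature Extraction 10.7.1.1 on design 045522, whose grid names build rn4, and the processed signal is background-subtracted. The deposited series table holds intensity values equal, within rounding, to that signal divided by the array's 75th percentile. Spot counts and depth in reads do not apply; 59.2% to 67.8% of probes were well above background per array, and precision is limited by having 3 arrays in each group.

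Of 62976 spots, 1439 controls and 84 spike-ins were left out. Accessions were matched to RefSeq genes of GRCr8, used for names and for the promoter windows; 28206 probes (45.9%) received 1 symbol. Values are log2 of the processed signal over the array's 75th percentile. Each probe was tested by itself, if every array of either group read it well above background, by limma 3.58.1 in R 4.3.3 (lmFit, eBayes; two-sided). Adjusted p-values are those of Benjamini and Hochberg, and a probe passed under 0.05; intervals are at 95%. The fits were tested on simulated data. Dibromoethane replicates 1, 2 and 3 lay on slides 2, 1 and 3, and control replicates 1, 2 and 3 on slides 1, 1 and 2; slide 2 was scanned on another day than the others. The members, gene lists and alternatives were chosen with earlier results of these data known. The genes named are all members and, from each other list, those passing the test or else the 2 with the smallest p. Prodh, Hibch, Abat, Adh4 and Slc13a1 are exceptions chosen after their values were seen.

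The alternatives were quantile normalization, median centring, normexp with an offset of 50 (on the median spot signal, as the tables used here have no mean signal), other filters, gene-level values, slide, scan day or replicate number as a block, trend and robust, array weights, the series table and leaving out each array. Same-numbered arrays of the 2 groups had deviations from their group means that correlated at -0.20, 0.235 and 0.134, so the numbers were not taken to pair them.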

Additional observations from a re-analysis of the deposited data

How the results depend on the processing

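With 3 rats per group, a single dose and a single time, the precision rests on the number of arrays. No member probe passed the test under any of the 21 alternatives (lowest adjusted p 0.188), and no probe of the other lists did. The count of probes passing over the whole array was 10 and became 6 with normexp, 1 without the filter, 0 with slide as a fixed block or with only the slides that held both groups, 2 with scan day as a block, 20 with trend and robust, and 1 to 12 when 1 array was left out; the cause was not tested. With the replicate block it was 0 as well (4455 at an unadjusted p under 0.05, and 4394 with the slide block), and the numbers were not taken to pair the arrays. The family's median of 0.17 was 0.109 over the highest probe of each gene and 0.109 to 0.191 when 1 array was left out.

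Of the 18 member probes, 12 kept their sign throughout, among them those of Aldh1l1, Aldh4a1, Aldh2, Aldh9a1 and Aldh3a2. Other filters, the highest probe of a gene, scan day or replicate blocks, and trend and robust left each log2 fold change unchanged. Those alternatives could not turn a sign. The slide block and the both-group slides gave the same values as each other. Aldh1l1 ran from 0.33 to 0.46. The sign turned for Aldh7a1 with quantile normalization (A_64_P067663 0.057), median centring (A_42_P772965 -0.029), normexp (A_42_P772965 -0.013), the mean of its probes (-0.00046), the slide block and the both-group slides (A_42_P772965 -0.0037) and array weights (A_42_P772965 -0.0011), and for Aldh6a1 with median centring (-0.013) and both slide settings (-0.034). Aldh1b1 A_44_P175376 gave 0.082 with array weights, Aldh16a1 A_44_P212934 0.020 with both slide settings, and Mthfs A_44_P935273 -0.10 as the mean of probes. Leaving out 1 array gave ranges of -0.026 to 0.050 for Aldh7a1 A_42_P772965, -0.036 to 0.057 for Aldh6a1, -0.092 to 0.17 for Aldh1b1 A_44_P175376, -0.053 to 0.17 for Aldh1a1 A_64_P067659, -0.18 to 0.0014 for Aldh16a1 A_44_P212934, -0.066 to 0.33 for Prodh A_64_P038926 and -0.10 to 0.23 for Prodh A_43_P16750.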

Other observations

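Adh4, an alcohol dehydrogenase of retinol and aliphatic alcohols, was chosen after its values were seen. It read -4.57, -2.63 and -4.68 in dibromoethane rats, against -6.28, -5.58 and -5.04 in control rats. The log2 fold change was 1.67 (SE 0.62, limma adjusted p = 0.412), and dibromoethane replicate 2 was the highest array. All 3 dibromoethane arrays and 1 of 3 control arrays read it well above background. The value was 0.44 with normexp background correction and 1.01 without dibromoethane replicate 2.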
